A study of Mus musculus with 8 samples.

Results

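The enkephalin precursor Penk, the related precursor Pdyn, the classical opioid receptors Oprd1, Oprm1 and Oprk1, and the opioid growth factor receptor Ogfr were followed in heart RNA of aged mice. These 6 genes are named members of the opioid system among 30153 genes in the deposited table, and all 6 were found there by symbol. The set was chosen by the Penk TPM values, which differed between the diet groups in an earlier analysis of the same libraries, and the other 5 genes were taken for their relation to Penk. The values of all 6 in this contrast are therefore given as a description, with no test.

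The 8 libraries came from hearts of aged C57/BL6 mice with a transgene, the human type 1 receptor of angiotensin II in its haplotype II form. The control group (n = 4) is labelled as aged only, and the western diet group (n = 4) is labelled as aged with a western diet, meaning feed with much fat and sugar. Below, C1 to C4 are the replicates of the control group and W1 to W4 those of the western diet group. Both groups carry the human transgene, so no library shows hearts without it, and the labels name neither its promoter nor the sex, exact age or length of feeding. Levels are in TPM (transcripts per 1000000 transcripts, which corrects for transcript length), and the read depth of each library is unknown because TPM does not keep it. Whether the libraries of a group are separate animals is not in the labels, so spreads and p-values measure only the spread between these 8 samples, which may be technical.

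Opioid peptides are cut from large precursor proteins in the secretory pathway. Penk gives Met- and Leu-enkephalin, which act mainly on the delta receptor (Oprd1) and also on the mu receptor (Oprm1), while Pdyn gives dynorphins, the ligands of the kappa receptor (Oprk1). These are G protein-coupled receptors that act through inhibitory G proteins and slow adenylyl cyclase. Ogfr is unrelated to them in structure: it sits at the nucleus, binds Met-enkephalin (also called opioid growth factor) and restrains cell division. Heart muscle is a long-known site of Penk RNA outside the nervous system, and opioid receptor agonists have been studied for protection of the heart against ischaemia.

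The Penk gene (ENSMUSG00000045573) lies on the minus strand of chromosome 4 from 4133531 to 4138819 of GRCm38. Its reference transcript in GENCODE vM21 has 2 exons and 1449 bases and codes for 268 amino acids. Translation of that reading frame found 7 enkephalin units, 6 of Met-enkephalin and 1 of Leu-enkephalin, all within exon 2 (chr4:4133842-4134354). They are shown because 1 Penk transcript carries all 7, so that each transcript counted here stands for several copies of the peptide. Sequences are 5′ to 3′ on the coding strand, capitals mark the 15 bases that code for the pentapeptide, and lower case marks the 2 codons on each side.
Met-enkephalin unit 1, codons 100 to 104: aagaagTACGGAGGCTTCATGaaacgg
Met-enkephalin unit 2, codons 107 to 111: aaacggTACGGAGGCTTCATGaagaag
Met-enkephalin unit 3, codons 136 to 140: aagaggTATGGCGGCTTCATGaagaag
Met-enkephalin unit 4, codons 187 to 191: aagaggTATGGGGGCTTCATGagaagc
Met-enkephalin unit 5, codons 211 to 215: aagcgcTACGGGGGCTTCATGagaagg
Leu-enkephalin unit 6, codons 231 to 235: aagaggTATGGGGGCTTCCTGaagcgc
Met-enkephalin unit 7, codons 262 to 266: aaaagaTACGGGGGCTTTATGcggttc

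All 7 units follow a pair of codons for the basic residues lysine or arginine, the signal that prohormone convertases cut at. In 5 of the 7 a basic pair also comes after the unit. Units 4 and 7 have only 1 basic codon there and form the start of longer enkephalin peptides. The 15-base cores came in 6 different spellings, and units 1 and 2 were identical.

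The heart label was matched by abundant ventricular muscle RNA: Myl2, the ventricular myosin light chain, was at 13530 to 19809 TPM in the 8 libraries. Several libraries stood apart. The Y-linked gene Eif2s3y stood at 21.1 to 29.0 TPM in C1 to C4 and at 22.3 TPM in W4, whereas W1, W2 and W3 held 0 to 0.0231 TPM. Myl7, the atrial light chain, was at 184 and 1403 TPM in C1 and C3 and at 335 TPM in W2, against at most 2.87 TPM elsewhere. Kap, known from kidney, was at 7.15 to 72.1 TPM with western diet and at most 0.685 TPM in controls, and Irf7, an interferon-induced factor, was at 61.0 TPM in W4 against 10.5 to 14.7 TPM in W1, W2 and W3.

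Penk was lower in every western diet library than in every control. Its level was 10.7, 10.7, 10.4 and 9.52 TPM in C1 to C4. In W1 to W4 it was 4.55, 2.51, 1.98 and 6.19 TPM. The controls lay close together, with a coefficient of variation of 5.47%, while the western diet libraries spread widely, with one of 50.9%. The means were 10.3 ± 0.566 TPM and 3.81 ± 1.94 TPM (SD, n = 4 per group), which is 2.72-fold lower with western diet. On the log2(TPM + 1) scale, which understates changes of low genes, the difference was -1.33 (SE 0.23).

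The groups were separated by 3.33 TPM, from 6.19 TPM in the highest western diet library to 9.52 TPM in the lowest control. That gap is wider than the whole range of the controls, 1.21 TPM, and narrower than the range of the western diet libraries, 4.21 TPM. Of the 10969 genes tested, 1.75% had all 4 western diet libraries below all 4 controls, and nothing is read from Penk being among them, since it was chosen for this difference. Relative to the control mean, W1 to W4 held 43.9%, 24.2%, 19.2% and 59.8% as much Penk. By level Penk ranked 3819th to 4533rd of the 30153 genes in the controls and 5623rd to 9459th in the western diet libraries. Among genes with at least 1 TPM, it neared the lower end in W2 (9106th of 11123) and W3 (9459th of 11006). In W4 (5623rd of 10737) and W1 (7110th of 11032) it lay nearer the middle.

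The highest of the western diet libraries for Penk was W4, the only one of that group with Y-linked transcripts. The 3 others averaged 3.01 ± 1.35 TPM (SD, n = 3). With a model term for Y-linked transcripts, the estimate rests on W4 against the controls and was -0.66 (SE 0.27), about as far from 0 as from the value without the term. The labels give no sex, all 4 controls carry Y-linked transcripts, and the diet and the presence of these transcripts cannot be told apart in 3 of the 4 western diet libraries. Without the 3 libraries with atrial transcripts the difference was -1.18 (SE 0.30). W4 also had the most Kap and Irf7, and the part of those transcripts in the spread of Penk was not tested.

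**Figure D1:**
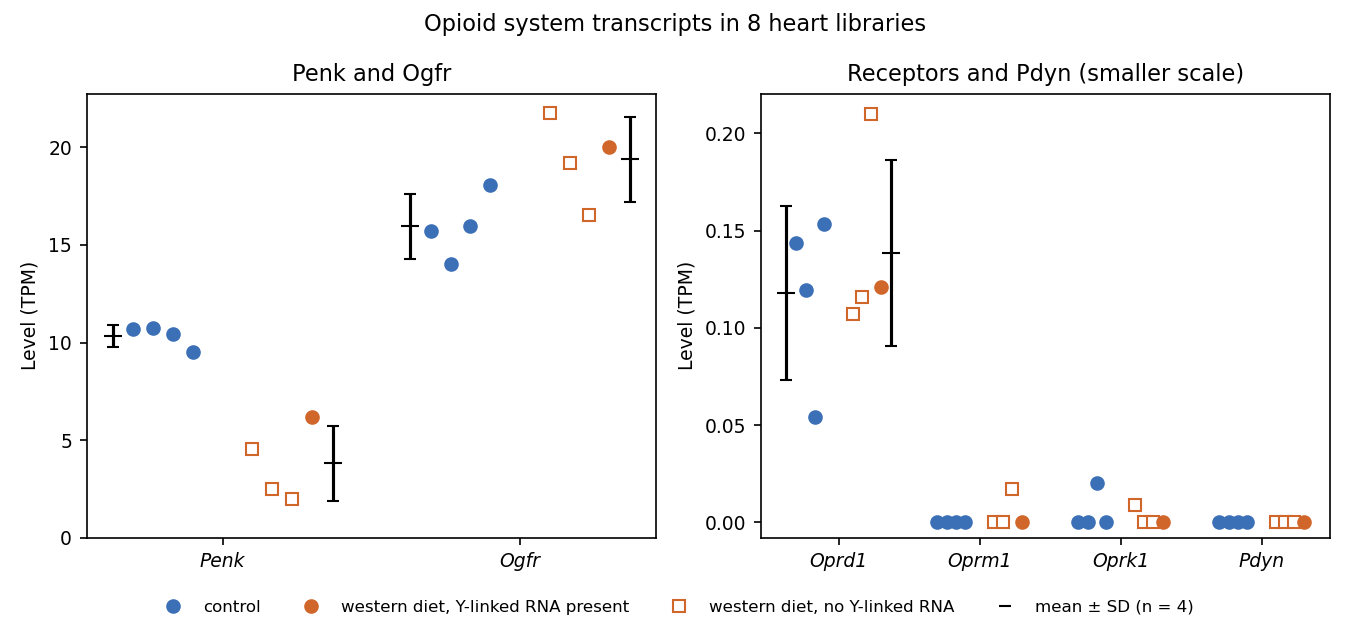
Levels in TPM of Penk and Ogfr (left axis) and of Oprd1, Oprm1, Oprk1 and Pdyn (right, on a smaller scale) in each library, with squares for western diet libraries without Y-linked RNA and bars for mean ± SD (n = 4) of the first 3 genes named. Penk in western diet lies between 1.98 and 6.19 TPM, below all controls, Ogfr overlaps between the groups, and the other 4 are at or below 0.210 TPM.

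Penk was the only one of 4 opioid peptide precursors with a level above 0. Pdyn (ENSMUSG00000027400, chromosome 2, 129686565 to 129699844) was listed at 0 TPM in all 8 libraries. So were Pomc, the precursor of beta-endorphin, and Pnoc, the precursor of nociceptin. A value of 0 in this table is an estimate without a known depth, so it sets no upper limit on their RNA, and no fold change is given.

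The classical receptors were close to or at 0. Oprd1, the delta receptor through which enkephalins mainly act (ENSMUSG00000050511, chromosome 4, 132110726 to 132144486), was the only one above 0 in every library. Its level was 0.144, 0.120, 0.0543 and 0.154 TPM in C1 to C4 and 0.107, 0.116, 0.210 and 0.121 TPM in W1 to W4. The groups overlapped, and the means, 0.118 ± 0.0447 and 0.138 ± 0.0480 TPM (SD, n = 4 per group), differed by less than the spread within either. Oprm1, the mu receptor (ENSMUSG00000000766, chromosome 10, 6758506 to 7038198), was at 0.0171 TPM in W3 and listed at 0 in the other 7 libraries. Oprk1, the kappa receptor (ENSMUSG00000025905, chromosome 1, 5588466 to 5606131), was at 0.0203 TPM in C3 and 0.00914 TPM in W1, and listed at 0 in the other 6. Oprl1, the related nociceptin receptor, was at 0 to 0.0898 TPM. None of these receptors reached the 1 TPM in at least 4 libraries that was required for a test.

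Ogfr, the nuclear receptor of Met-enkephalin, was the most abundant of the 6 members (ENSMUSG00000049401, chromosome 2, 180589245 to 180595836). It stood at 15.7, 14.01, 15.98 and 18.1 TPM in C1 to C4 and at 21.8, 19.2, 16.5 and 20.02 TPM in W1 to W4. W3 lay below C4, so the groups overlapped. The means were 15.9 ± 1.67 and 19.4 ± 2.18 TPM (SD, n = 4 per group), with a difference of 0.27 (SE 0.11) in log2(TPM + 1). Penk TPM was 0.527 to 0.766 times that of Ogfr in the controls and 0.120 to 0.309 times in the western diet libraries. This ratio mostly restates the lower Penk, for which the set was chosen, and nothing further is read from it.

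In order of level the members were Ogfr, Penk, Oprd1, then Oprk1 and Oprm1, and last Pdyn. Ogfr exceeded Penk, and Penk exceeded Oprd1, in each of the 8 libraries. Oprk1 and Oprm1 did not differ beyond their spread, since each was at 0 in most libraries. Only Penk and Ogfr, 2 of the 6, passed the filter on low values.

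Besides the 6 members, 83 genes of the opioid pathway were listed by role, and 55 of them were high enough to test. None of the 55 passed an adjusted p of 0.05 (limma, Benjamini-Hochberg over all 10969 genes), against 33 genes or 0.301% of all genes tested (0.0729% lower with western diet). At an unadjusted p under 0.05 there were 10 of the 55, all higher with western diet, where 11.7% of all genes had such a p. The groups did not overlap for 2 of the 55, Furin and Nfix, against 6.60% of all genes. The western diet mean was the higher one for 41 of the 55 and for 66.4% of all genes tested. The median difference in log2(TPM + 1) was 0.11 for the 55 and 0.06 for all genes. With median-of-ratios scaling 34 of the 55 were higher and with quantile normalization 31, with medians of 0.04 and 0.03, where 48.8% and 47.1% of all genes were higher. With the term for Y-linked transcripts 24 of the 55 were higher, the median was -0.02 and 3 had an unadjusted p under 0.05, while 35.8% of all genes were higher and their median was -0.07. The direction of the 55 thus shifted together with that of the whole table.

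Transcripts of enzymes that release enkephalins from the precursor were present at very different levels. The convertases of neuroendocrine granules, Pcsk1 and Pcsk2, were near 0, at 0.00788 to 0.101 TPM and 0.0240 to 0.0767 TPM. Cpe, the carboxypeptidase that trims the basic residues after cleavage, was at 121 ± 12.6 TPM in control and 114 ± 14.6 TPM with western diet (SD, n = 4 per group; limma adjusted p = 0.812). Ctsl, a cathepsin that can also cut the enkephalin precursor, was at 64.3 ± 4.82 and 62.8 ± 7.55 TPM (limma adjusted p = 0.919). Furin, the convertase of the Golgi and constitutive secretion, was at 20.5, 15.1, 21.2 and 19.9 TPM in C1 to C4 and at 28.5, 33.1, 23.6 and 23.1 TPM in W1 to W4. Every western diet value of Furin was above every control, yet it did not pass (log2 difference 0.48, SE 0.14, limma adjusted p = 0.203), nor did the related convertase Pcsk6 at 14.4 ± 1.95 and 18.8 ± 2.50 TPM (limma adjusted p = 0.272). In this list 6 of 13 genes were tested and 0 passed, with 4 of the 6 higher, against 66.4% of all genes, and a median difference of 0.09.

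Peptidases that destroy enkephalins were all expressed in these hearts. All 8 listed genes were tested, 0 passed, 5 had the higher mean with western diet, against 66.4% of all genes, and the median difference was 0.05. Mme, the cell-surface neprilysin also called enkephalinase, was at 2.27 ± 0.546 TPM in control and 2.47 ± 0.446 TPM with western diet (limma adjusted p = 0.851). Ace, the angiotensin-converting enzyme, which also cuts enkephalins, was at 13.4 ± 1.14 and 11.2 ± 2.79 TPM (limma adjusted p = 0.549). The most abundant were the cytosolic aminopeptidase Npepps, at 27.1 ± 4.54 and 28.4 ± 2.97 TPM (limma adjusted p = 0.866), and the endothelin-converting enzyme Ece1, at 23.9 ± 3.21 and 23.4 ± 1.93 TPM (limma adjusted p = 0.949).

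Transcripts for proteins of dense-core granules, where neuroendocrine cells keep opioid peptides, were mostly under 1 TPM. Only 1 of 10 was tested, Ptprn, a granule membrane protein, at 1.95 ± 0.237 TPM in control and 1.62 ± 0.259 TPM with western diet (limma adjusted p = 0.606). Ptprn2, its relative, was at 4.17 TPM in W4 while the other 7 libraries held 0.0254 to 0.162 TPM. Chga, chromogranin A, was at most 0.0247 TPM.

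Transcripts of signalling partners of the receptors were present although those of the classical receptors were close to or at 0. These partners also serve many other receptors of the heart. Of 26 listed, 21 were tested and 0 passed, with 14 of the 21 higher, near the 66.4% of all genes, and a median difference of 0.08. The most abundant were Gnb2, a G protein beta subunit, at 140 ± 12.3 and 134 ± 16.8 TPM (limma adjusted p = 0.85), and Gnai2, the inhibitory alpha subunit through which opioid receptors act, at 90.5 ± 7.29 and 105 ± 8.95 TPM (limma adjusted p = 0.418). Ogfrl1, the relative of Ogfr, was at 7.61 ± 1.24 and 6.97 ± 1.30 TPM (limma adjusted p = 0.805).

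No gene of the transcription factors known to act on the Penk promoter passed the test. Of 21 listed, 17 were tested and all 17 had the higher mean with western diet, where 66.4% of all genes did. Their median difference was 0.28, against 0.06 for all genes. An unadjusted limma p under 0.05 was found for 5 of the 17 and for 11.7% of all genes tested. The direction was not the same throughout. With median-of-ratios scaling and with quantile normalization 14 were higher and 3 lower, where 48.8% and 47.1% of all genes were higher. With the term for Y-linked transcripts 12 were higher and 5 lower, where 35.8% of all genes were higher. The most abundant were Nfix, of the nuclear factor I family, at 23.3 ± 4.70 and 31.9 ± 3.66 TPM (limma adjusted p = 0.228), and Atf1, a relative of the cAMP-responsive factor CREB, at 23.2 ± 6.63 and 27.7 ± 3.20 TPM (limma adjusted p = 0.586).

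Junb and Jund, which encode AP-1 subunits and were chosen after their values were seen, divided the western diet libraries. Jund was at 5.19, 5.09, 5.43 and 5.14 TPM in C1 to C4. With western diet it was at 12.02, 12.5, 4.56 and 8.28 TPM in W1 to W4. W3 was thus below every control and the other 3 above them. Junb showed the same arrangement, at 2.81 to 3.60 TPM in controls and at 6.58, 7.52, 2.72 and 5.80 TPM in W1 to W4. Neither passed with all libraries (limma adjusted p = 0.310 for Jund and 0.280 for Junb). Both passed when W3 was left out, with differences of 0.92 for Jund (limma adjusted p = 0.0247) and 0.90 for Junb (limma adjusted p = 0.0227). In that setting 54 of all 10969 genes passed. Nothing is read from these 2 calls, since the genes were picked with W3 already seen to stand apart. Fosl2, another AP-1 gene, did not show this arrangement, since its level in W4 (4.89 TPM) lay within the controls (3.04 to 4.96 TPM). Nor did Jun or Fos. Jun in W3 (7.45 TPM) was below the controls (10.9 to 14.8 TPM), but in W1 (13.6 TPM) it was within them. Fos in W3 (1.79 TPM) lay within the controls (1.10 to 2.47 TPM).

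**Figure D2:**
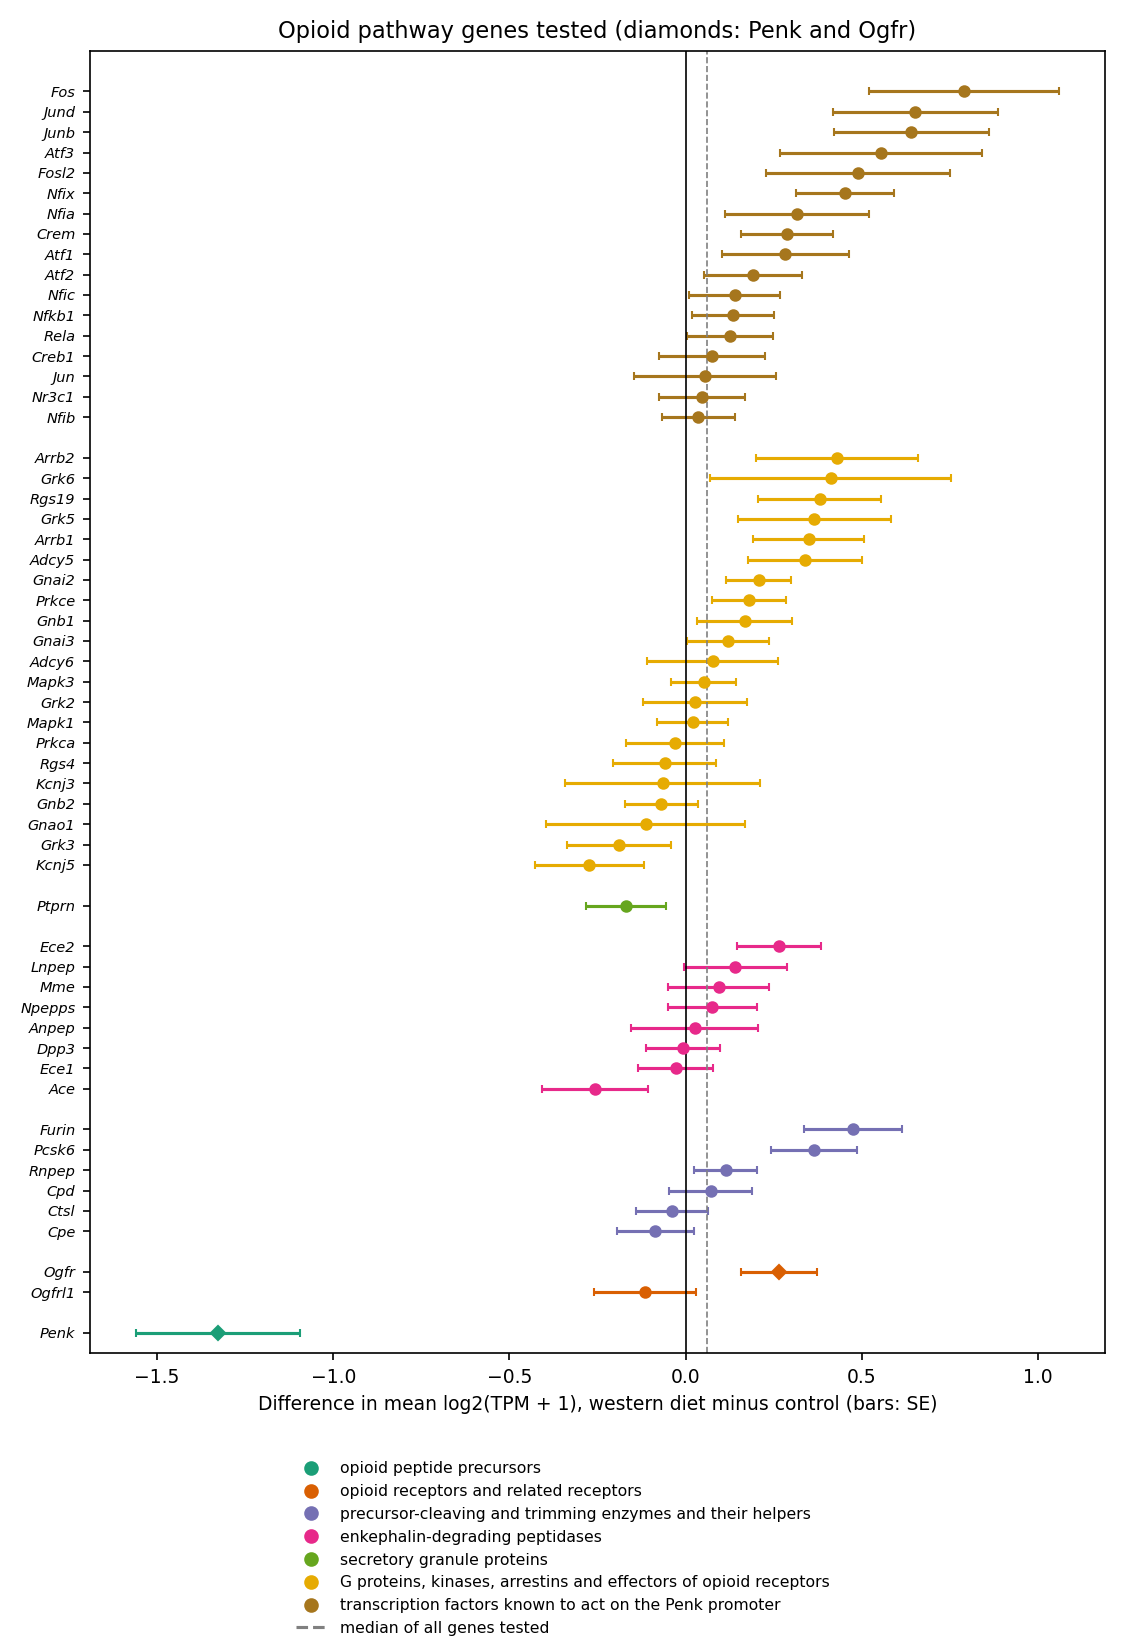
Difference in mean log2(TPM + 1), western diet minus control, with SE bars, for 56 of the opioid system genes tested, coloured by role. Penk lies at -1.33 and the other genes run from -0.27 to 0.79. Penk was chosen for this difference, so nothing is read from its place. The dashed line marks the median of all genes at 0.06.

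The genes whose levels were most like that of Penk across the 8 libraries were Srpk2, Actr3b, Cth, Nmb and Snai3, with Pearson r of 0.964, 0.958, 0.9504, 0.947 and 0.945 in log2(TPM + 1) among 10908 genes with a symbol. These are descriptions over 8 libraries that share the 2 groups, so any gene lower with western diet tends to score high. Nmb, which encodes the neuropeptide neuromedin B, was at 6.45, 6.33, 5.07 and 5.51 TPM in C1 to C4. In W1 to W4 it was at 3.45, 2.67, 1.21 and 3.33 TPM, and like Penk it was lowest in W3. Cth, an enzyme of cysteine synthesis that also makes hydrogen sulfide, was at 1.26 to 1.42 TPM in controls and at 0.600, 0.489, 0.515 and 1.21 TPM in W1 to W4. As for Penk, its highest western diet value was in W4.

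Srpk2, a kinase of splicing factors, and Actr3b, an actin-related protein, also had no overlap between the groups but smaller differences, from 5.97 ± 0.219 to 4.53 ± 0.413 TPM and from 26.9 ± 2.10 to 20.5 ± 2.13 TPM (SD, n = 4 per group). Snai3, a transcriptional repressor, was at 3.96 ± 0.783 and 1.74 ± 0.437 TPM. The most opposite patterns belonged to Fxyd6, a regulator of the sodium pump, at 5.84 at the median of controls and 7.22 to 11.2 TPM with western diet (r = -0.984), Trp53inp2, an autophagy protein (r = -0.978), and Rtl6 (r = -0.971). In all, 20 genes had an r above 0.9 with Penk and 78 an r below -0.9. Among the 20 were the Y-linked genes Eif2s3y, Kdm5d and Ddx3y (r = 0.911, 0.9102 and 0.902) and the smooth muscle gene Tagln (r = 0.923).

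**Figure D3:**
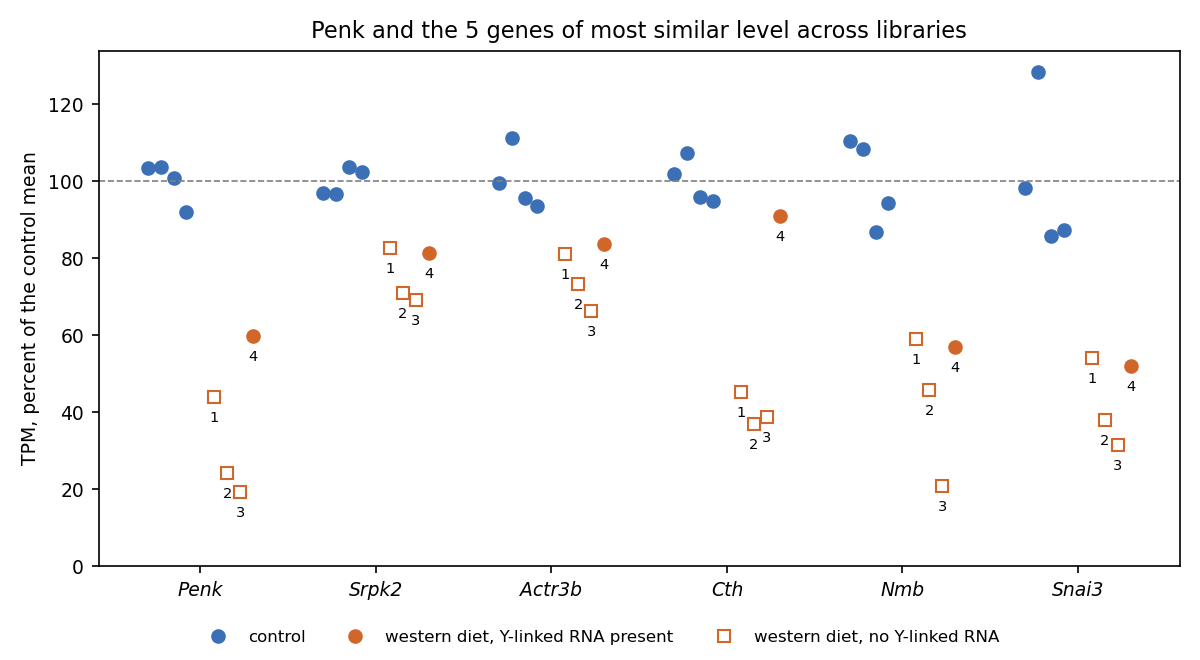
Level of Penk and of the 5 genes most like it, as TPM in percent of each gene's control mean, per library (numbers mark western diet replicates, squares those without Y-linked RNA). W4 is the highest of its group for Penk (59.8%), Actr3b and Cth, and W3 the lowest for Penk (19.2%), Srpk2, Actr3b, Nmb and Snai3.

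The neighbourhood of Penk held little expression to compare. The 2 nearest coding genes on the lower side, Sdr16c6 and Sdr16c5, both of the short-chain dehydrogenase family, lie 56 and 114 kb away and were at 0 to 0.0509 TPM and at 0 in all libraries. On the other side Impad1, a phosphatase of the Golgi, lies 624 kb away and was at 6.55 to 8.85 TPM in controls and 6.95 to 7.95 TPM with western diet. Fam110b, 1505 kb away, was at 2.33 to 3.44 and 2.78 to 4.18 TPM. For both of these the groups overlapped. A non-coding gene on the opposite strand, A830012C17Rik, shares 499 bases with the 5′ end of Penk and was not analysed here. The library kit keeps strand, but whether quantification used it is not given in the sources used here.

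In RNA of mixed heart tissue, fewer cells of a type and less RNA per cell cannot be told apart, so the sums of marker genes are given beside Penk. Markers are counted as higher by mean TPM, and the share of all genes tested by mean log2(TPM + 1). The 9 fibroblast markers summed to 745 to 1062 TPM in controls and 787 to 1055 TPM with western diet. Of these, 8 of 9 were higher on average, where 66.4% of all genes tested were, and 0 of 9 passed the threshold. The 8 heart muscle markers summed to 45339 to 49661 and 38298 to 47845 TPM, with 3 of 8 higher. Neuron and ganglion markers, 3 of 11 higher, summed to 12.8 to 16.2 and 12.1 to 17.5 TPM. Of the 11, 7 were under 1 TPM in all libraries. Among these was Th, an enzyme of catecholamine neurons and adrenal medulla. It was listed at 0 in 7 of 8 libraries and was at 0.138 TPM in C4. Other markers of the list were higher. Dbh, which marks the same cells, was at 0.849 to 1.81 TPM, Stmn2 at 3.15 to 4.73 TPM and Uchl1 at 7.18 to 11.2 TPM.

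Among the markers of heart cell types, 3 passed the test. They were 1 of 6 smooth muscle and pericyte markers tested, 1 of 3 of the conduction system and 1 of 6 endothelial. Of all genes tested, 0.301% passed and 6.60% had no overlap between the groups. The 6 smooth muscle and pericyte markers summed to 187 to 217 and 207 to 278 TPM, with 2 of 6 higher, and went in different directions. Tagln (transgelin, which binds actin in smooth muscle) was at 16.2 to 21.1 TPM in controls and at 7.92 to 10.9 TPM with western diet, 1.86-fold lower on average (n = 4 per group; limma adjusted p = 0.0169), and its groups did not overlap. Its call was lost with no filter (limma adjusted p = 0.134), with the term for Y-linked transcripts (limma adjusted p = 0.225), in the libraries that hold them (0.114), without the libraries with atrial transcripts (0.286), and without C1, C3 or C4 (0.0652, 0.0643 and 0.0576). Acta2, smooth muscle actin, was at 33.4 ± 5.99 and 80.8 ± 29.1 TPM (limma adjusted p = 0.063), without overlap.

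The 6 conduction system markers summed to 6.42 to 9.65 and 4.54 to 6.52 TPM, with 2 of 6 higher. Cntn2, a contactin that marks Purkinje fibres, fell 4.48-fold, from 2.96 ± 0.434 to 0.661 ± 0.296 TPM (limma adjusted p = 0.00527), with no overlap. Over the 8 libraries the r of Cntn2 with Penk was 0.801, but for deviations from the group means it was -0.312. The positive value thus comes from both genes being lower with western diet, the difference for which Penk was chosen. The call of Cntn2 was lost with no filter (limma adjusted p = 0.0715) and without the libraries with atrial transcripts (0.113). With western diet Cntn2 reached 1 TPM only in W1 (1.02 TPM), so the controls, where it is high, carried it past the filter. Of the 6 endothelial markers, which summed to 158 to 195 and 182 to 196 TPM, 3 were higher and Cldn5, a tight junction protein, rose from 8.57 ± 0.992 to 17.3 ± 1.38 TPM (limma adjusted p = 0.00527), a call lost without the libraries with atrial transcripts (limma adjusted p = 0.0609).

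Kidney, Y-linked and macrophage genes differed between the groups to varying degrees. The 6 kidney markers were all higher on average with western diet, where 66.4% of all genes tested were, or 61.2% with no filter on low values. They summed to 0.0336 to 0.744 TPM in controls and 9.45 to 79.3 TPM with western diet. Most of the western diet sums was Kap (7.15 to 72.1 TPM), the only 1 of the 6 tested, which passed (limma adjusted p = 0.0169). Nothing is read from this call. Kap was named because it stood apart, and it reached 1 TPM only in the western diet libraries, which alone carried it past the filter. Umod was at 0 in W1, W3 and all controls, while Miox was at 0.601 to 2.73 TPM with western diet and 0 in controls. The 4 Y-linked genes were all lower on average, with 0 of 4 past the threshold, with sums of 38.6 to 52.6 TPM in controls and 0.227 to 41.3 TPM with western diet. The 6 macrophage markers were all higher on average, where 66.4% of all genes tested were. Their sums of 55.0 to 67.9 and 66.8 to 108 TPM overlapped, and 0 of 6 passed the threshold. The part of any of these cell types or transcripts in the level of Penk was not tested.

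**Figure D4:**
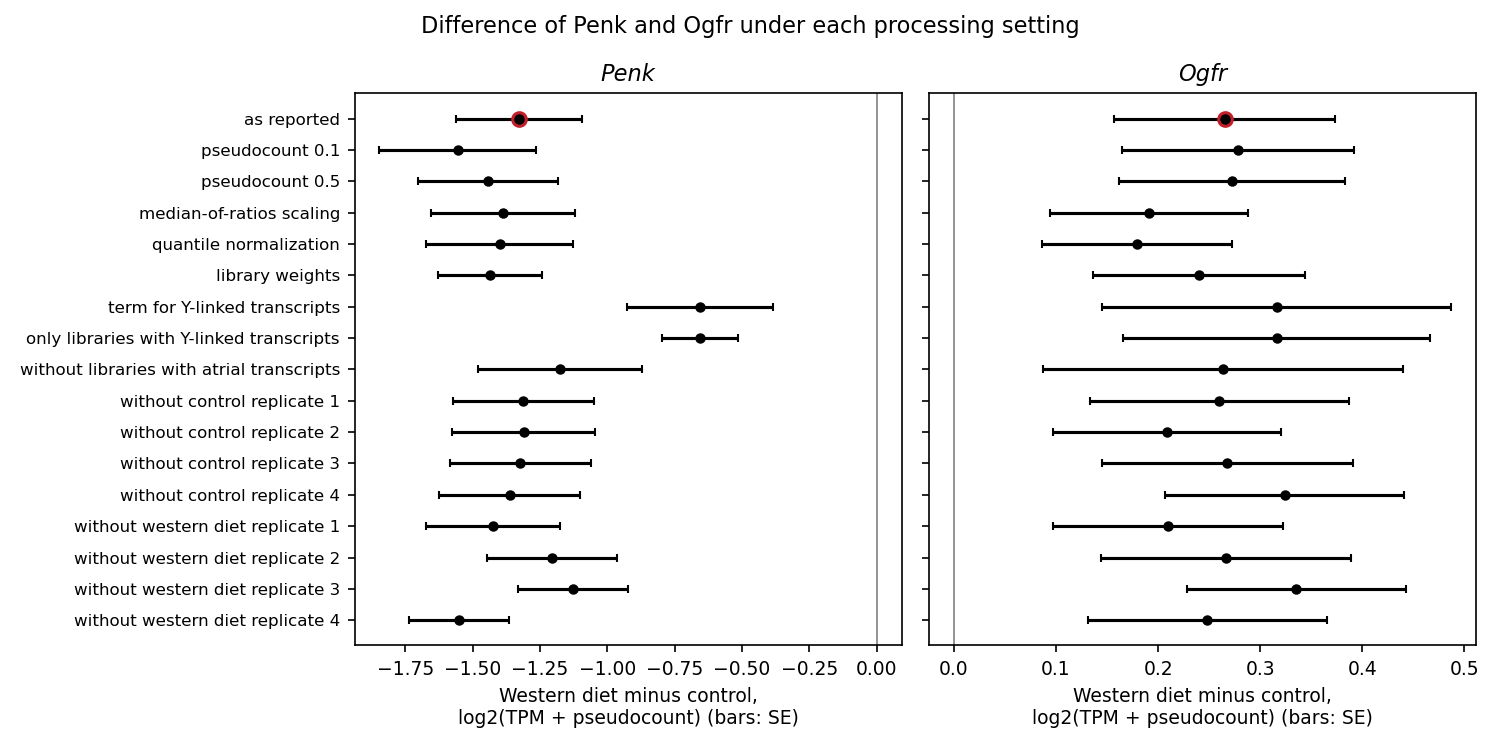
Difference of Penk and of Ogfr, western diet minus control, in log2(TPM + pseudocount) under each processing setting, with SE bars; the red ring marks the value reported. Penk stays between -1.56 and -1.13 except for the 2 settings based on Y-linked transcripts (-0.66), and Ogfr between 0.18 and 0.34.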

How the data were processed

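The authors deposited 1 table of gene-level TPM with a column for each of the 8 libraries. RNA extraction was by Qiagen kit and poly(A) RNA entered stranded Illumina TruSeq libraries, per the labels' protocols. Kallisto, DESeq2 and GRCm38 are named in the submitters' processing notes, without roles or versions. The columns summed to 941318 to 953448. Which annotation was used, and how transcripts were summed to genes, is not given in the sources used here.

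Of 30153 Ensembl identifiers, 29811 were matched to a symbol and 1-based coordinates in GENCODE vM21 (GRCm38). The Penk reading frame was taken from its transcript there. The 10969 genes that reached 1 TPM in 4 or more libraries were fitted by limma 3.58.1 (R 4.3.3) as log2(TPM + 1), with the group as only term, an intensity trend, two-sided tests and Benjamini-Hochberg adjustment over all of them, at a threshold of 0.05. The fit was tested on simulated data. Figures used Python 3.11.15 and matplotlib 3.10.9. Groups were read from the labels, and replicate numbers follow the accessions and pair nothing.

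The members, the 7 pathway lists, the 16 marker lists and the alternatives were chosen with earlier results of these data known. The text names the members, the 2 most abundant genes and any gene past the threshold of each pathway list, the genes most and least like Penk by Pearson r, its 2 nearest coding genes on each side, marker genes, and Eif2s3y, Myl7, Kap and Irf7 for libraries that stand apart. The values of 1 pathway gene that this rule names are not reported here, although the counts over the lists include it. Furin, Pcsk1, Pcsk2, Pcsk6, Mme, Ace, Chga, Pomc, Pnoc, Oprl1, Ogfrl1, Junb, Jund, Jun, Fos, Fosl2, Atf3 and Th are outside this rule and were chosen after their values were seen. Alternatives were other pseudocounts (0.1 and 0.5), filters and scalings, library weights, a term for or restriction to Y-linked transcripts, and leaving out libraries; their use on Cntn2, Tagln and Cldn5 was chosen after seeing the data.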

Additional observations from a re-analysis of the deposited data

Results flagged for a closer look

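In groups of 4, 1 library lay far from the other 3 (the gap was over 0.829 of the range) in 16 of 113 groups of named genes; chance flags about 1 in 20. That rate does not apply to 6 of the 16, in which the other 3 libraries were all at 0. Nor does it apply to Eif2s3y, Myl7, Kap and Irf7, which were named because libraries stood apart in them. The same holds for genes chosen after their values were seen, such as Atf3. The count of 16 is therefore not read against that rate. For the receptors these were Oprd1 in W3 (0.21 TPM against 0.107 to 0.121), Oprm1 in W3 (0.0171 TPM, the others at 0), and Oprk1 in C3 (0.0203 TPM) and W1 (0.00914 TPM), again with the others at 0.

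W4 stood apart for 6 genes. Ptprn2 was at 4.17 TPM there, Cth at 1.21 TPM, Eif2s3y at 22.3 TPM, Kap at 72.1 TPM and Irf7 at 61.0 TPM, each above the other 3, while Ece1 was below them at 20.5 TPM. In W3 the stress-induced factor Atf3 was at 2.15 TPM against 6.03 to 6.23 TPM in the other 3. The atrial gene Myl7 was high in C3 (1403 TPM) and W2 (335 TPM). Among genes near 0, Sdr16c6 was at 0.0509 TPM in C4 and 0.0231 TPM in W3, and Th at 0.138 TPM in C4.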

How the results depend on the processing

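The difference of Penk kept its sign in all settings run and moved by less than the spread between replicates in all but 2: it was -0.66 with the term for Y-linked transcripts and -0.66 in the 5 libraries that hold them, where the lone western diet library is assumed to vary like the controls. Leaving out 1 library gave -1.55 to -1.13. Ogfr kept its sign throughout, from 0.18 to 0.34. No tested pathway gene outside the members passed in any setting but 1, without W3, so that leaving out 1 library gave 0 to 2. Over all genes the count of 33 became 5 with no filter, 15 with a mean of at least 5 TPM, 61 with quantile normalization, 108 with library weights, 54 with the Y-linked term, 76 in the libraries with Y-linked transcripts, 5 without those with atrial transcripts, and 8 to 95 without 1 library (15, 9, 13 and 8 without C1, C2, C3 and C4, 54 without W3 and 95 without W4); the cause was not tested. Of the 33, 25 were higher and 8 lower, against 40 and 21 with quantile normalization. No paired analysis was possible because the labels give no number shared between the groups. Read depth is unknown, which limits what can be said of the receptors near 0.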

Other observations

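Within the groups, the genes whose deviations from the group means were most like those of Penk were Eps8l2, Lrrc17, Hsd11b1, H2-T23 and Taf11 (Pearson r of 0.968, 0.953, 0.948, 0.941 and 0.938 over 8 libraries), and the most opposite were Lin37 (-0.996) and the predicted genes Gm21897 and Gm10800 (-0.972 and -0.970). Because Penk varied little among controls, these values mostly follow the order of the 4 western diet libraries. Hsd11b1, which regenerates active glucocorticoid, was at 14.3 to 15.8 TPM in controls and at 10.7, 8.86, 7.76 and 15.6 TPM in W1 to W4. H2-T23, a non-classical MHC class I gene, was at 16.5 to 19.98 TPM in controls and at 30.7, 21.7, 19.6 and 36.4 TPM in W1 to W4. Lin37, of the DREAM cell cycle repressor complex, was at 9.46 to 10.4 TPM in controls and at 9.89, 14.1, 16.2 and 8.51 TPM in W1 to W4.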
